A study of Homo sapiens with 6 samples.

Results

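The plasminogen activation genes examined here are the 5 rows of the deposited gene count table whose gene name is PLAU, PLAUR, PLAT, SERPINE2 or SERPINB2, out of 58735 genes in all. They were taken by gene name, with no threshold on an expression value, but were chosen with earlier results of these data known. They were compared between 2 groups of 3 libraries from 786-O cells, an established clear cell renal carcinoma line: sh-CBX7, cells carrying a short hairpin RNA directed at CBX7, and sh-Control, cells carrying a control hairpin. CBX7 is a chromobox subunit of Polycomb repressive complexes, and the series title links it to RNF26, TNF signalling, proliferation and response to tyrosine kinase inhibitors. All 6 libraries come from a single cell line. The labels state neither how many hairpin sequences or clones were used nor if replicate libraries are from independent cultures. All p-values here describe spread among these libraries, which may be technical.

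Plasminogen is an inactive precursor, made mainly by the liver, that is cut to the broad protease plasmin. Urokinase (PLAU), a secreted serine protease, makes that cut at the cell surface while bound to its glycolipid-anchored receptor (PLAUR), and tissue-type plasminogen activator (PLAT) makes it best on fibrin. Serpins trap these proteases in covalent complexes: protease nexin 1 (SERPINE2) inhibits thrombin, urokinase and plasmin, and plasminogen activator inhibitor type 2 (SERPINB2) inhibits urokinase. The system is known for clot lysis, for matrix breakdown during cell migration and wound repair, and in the kidney for urokinase secreted by tubule cells.

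Promoter sequences from RefSeq on GRCh38.p14 were matched by symbol for 4 of the 5 genes (PLAU and SERPINE2 with 2 start sites each, PLAUR and SERPINB2 with 1 each), each covering 250 bases before to 50 bases after a transcription start. They were searched on both strands for TGANTCA (the AP-1 motif), GGGCGG (the GC box), TATAAA (the TATA box) and CCGGAAG (an ETS motif), which do not overlap in these windows. The 3 promoters below are shown because they belong to the protease, its receptor and its inhibitor and differ in these letters, with every match in capitals. The urokinase window is chr10:73910882-73911181 on the plus strand, the receptor window chr19:43670120-43670419 on the minus strand and the SERPINB2 window chr18:63887455-63887754 on the plus strand.
PLAU: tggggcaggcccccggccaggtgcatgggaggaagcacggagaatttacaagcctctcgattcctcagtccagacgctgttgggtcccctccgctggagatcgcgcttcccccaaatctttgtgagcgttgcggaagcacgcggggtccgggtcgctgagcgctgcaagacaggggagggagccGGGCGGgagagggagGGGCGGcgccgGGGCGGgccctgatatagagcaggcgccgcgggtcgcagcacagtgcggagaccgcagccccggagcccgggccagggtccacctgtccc
PLAUR: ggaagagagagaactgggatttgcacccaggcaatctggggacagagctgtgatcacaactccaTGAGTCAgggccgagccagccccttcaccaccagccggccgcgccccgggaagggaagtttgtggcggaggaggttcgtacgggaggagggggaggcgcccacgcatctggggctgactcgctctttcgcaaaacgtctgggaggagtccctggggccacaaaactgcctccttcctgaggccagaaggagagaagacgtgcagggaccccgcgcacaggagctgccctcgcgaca
SERPINB2: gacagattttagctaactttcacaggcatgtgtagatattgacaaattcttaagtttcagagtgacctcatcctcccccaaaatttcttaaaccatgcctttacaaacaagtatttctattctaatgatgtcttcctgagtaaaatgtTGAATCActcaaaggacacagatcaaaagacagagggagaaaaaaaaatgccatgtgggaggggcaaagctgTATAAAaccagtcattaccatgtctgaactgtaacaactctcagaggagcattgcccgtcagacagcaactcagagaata

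The PLAU window held 3 GC boxes, beginning at positions -66, -51 and -40 from the start. The PLAUR window held 1 AP-1 match at position -186, and the SERPINB2 window 1 AP-1 match at -102 with a TATA box at -30. The other PLAU window held no match, and the SERPINE2 windows held GC boxes only, 1 and 2 of them. Among 34796 promoter windows of the same length, 7.73% held the AP-1 letters, 44.9% the GC box, 11.6% the TATA box and 10.2% the ETS letters. These matches describe the letters in the windows, and binding was not measured.

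The 3' untranslated regions of PLAU, PLAUR and SERPINB2 are known for AU-rich elements, built around the pentamer ATTTA, that shorten the life of a transcript. In 1 coding transcript a gene from GENCODE 29 (GRCh38), PLAU had 2 such pentamers in 932 bases, PLAUR had 1 in 310 bases, PLAT had 2 in 760 bases, SERPINB2 had 4 in 574 bases and SERPINE2 had 2 in 755 bases. Of 12131 tested genes with a 3' untranslated region, 71.9% had at least 1. The longer form TATTTAT was present in PLAU (2 copies), PLAT (2), PLAUR (1) and SERPINB2 (1), was not found in SERPINE2, and occurred in 34.1% of tested genes. Windows from PLAU, PLAUR and SERPINB2 are shown with the pentamer in capitals, at chr10:73917417-73917446 (plus strand), chr19:43648601-43648630 (minus strand) and chr18:63903571-63903600 (plus strand).
PLAU: aatATTTAtatttcactatttttATTTAta
PLAUR: taatattcatattATTTAttttatacttac
SERPINB2: cttttactttgttATTTAttattttatata

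Transcript stability was not measured, so the data give steady levels only.

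Libraries held 16473407 to 18868874 counts in sh-CBX7 and 16384151 to 18006814 counts in sh-Control. Levels are given as CPM (reads of a gene relative to all counted reads of its library, after TMM, edgeR's scaling between libraries), and changes as log2 fold changes of sh-CBX7 over sh-Control with their standard error (SE). A gene was called when its Benjamini-Hochberg adjusted p in edgeR's quasi-likelihood test was below 0.05 over all 14573 genes that passed a filter on low counts. CBX7 had 143, 111 and 142 counts in sh-CBX7 libraries, against 203, 240 and 183 counts in sh-Control libraries, which is 7.44 ± 0.67 CPM against 12.2 ± 0.98 CPM (SD, n = 3 each; log2 fold change -0.71 with SE 0.13, adjusted p = 5.41e-05 by edgeR). The targeted transcript was thus lower in sh-CBX7 and still present in each library. Pairs of libraries of 1 group differed beyond counting noise, with a chi-square per gene of 3.11 to 4.32 in sh-CBX7 and 2.85 to 9.23 in sh-Control. The 2 highest values were those of sh-Control replicate 1 with replicates 2 and 3. The renal and mesenchymal genes of the 786-O marker list were all detected, VIM at 1772 CPM in sh-CBX7 and 1826 CPM in sh-Control and KRT8 at 1175 and 864.6 CPM. Of these 7 markers, 3 were called higher (KRT8, KRT18 and CDH2) and 2 lower, PAX8 (log2 fold change -0.32) and the carbonic anhydrase gene CA12, at 180 ± 4.67 CPM in sh-CBX7 and 418 ± 11.05 CPM in sh-Control (SD, n = 3 each; log2 fold change -1.22, edgeR adjusted p = 1.98e-14). Of all tested genes, 26.1% were called higher and 27.2% lower.

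Both activators, the urokinase receptor and protease nexin 1 had higher transcript levels in sh-CBX7, and urokinase moved furthest. All 4 members that passed the low-count filter were called higher and 0 lower, where 26.1% of all tested genes were called higher and 27.2% lower. Because the genes were chosen with earlier results of these data known, this count is no test of them as a set. The median log2 fold change of these 4 was 0.61, beside -0.006 over all tested genes. The fifth, SERPINB2, was too low to be tested. None of the 4 overlapped between groups, where 29.1% of tested genes had every sh-CBX7 library above every sh-Control library. In bulk RNA a change in the number of expressing cells and a change in RNA per cell cannot be told apart.

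**Figure D1:**
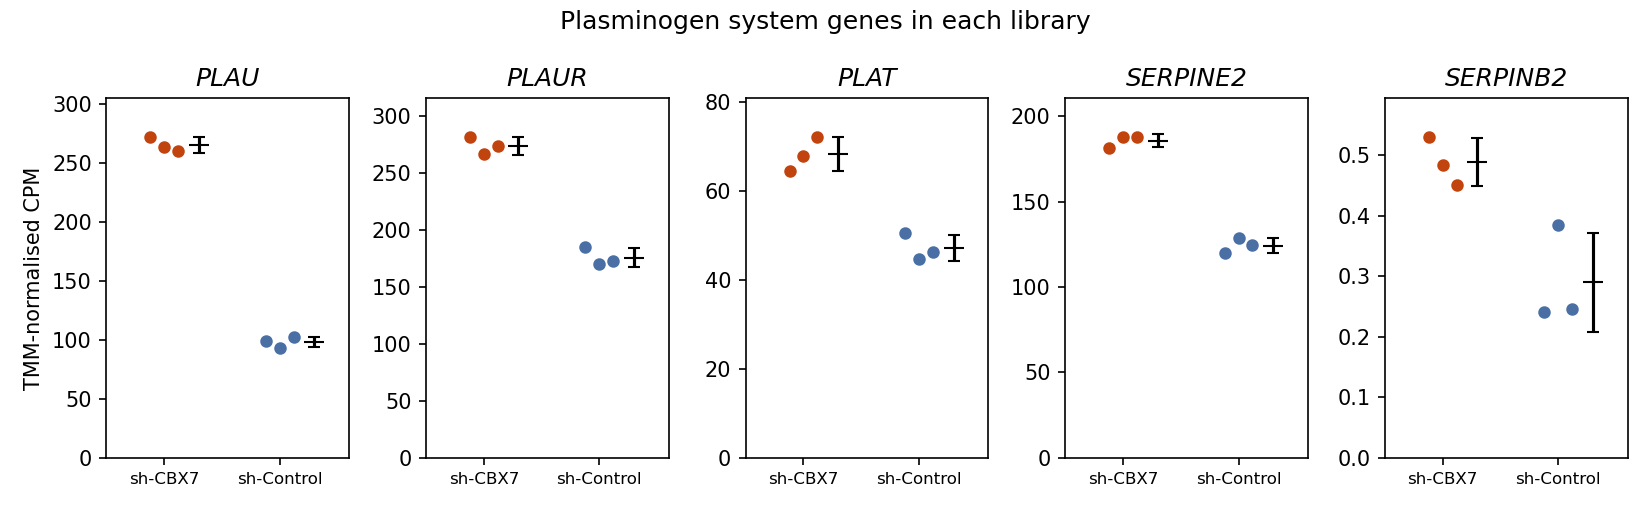
TMM-normalised CPM (vertical axis, from 0) of each gene in each library, sh-CBX7 in red and sh-Control in blue, with the mean and SD of 3 libraries as black marks. In every panel the sh-CBX7 points lie above the sh-Control points, and SERPINB2 lies below 1 CPM throughout.

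Urokinase showed the largest change of the tested members. PLAU (ENSG00000122861) lies on GRCh38 chromosome 10, 73909177 to 73917497, on the plus strand. It had 5128, 4364 and 4599 counts in sh-CBX7 libraries, against 1653, 1699 and 1665 counts in sh-Control libraries. In CPM these were 272, 263.5 and 259.5 in sh-CBX7, against 99.3, 93.4 and 102 in sh-Control. The lowest sh-CBX7 library was thus far above the highest sh-Control library, and the spread inside each group was small. The means were 265 ± 6.43 CPM in sh-CBX7 and 98.3 ± 4.47 CPM in sh-Control (SD, n = 3 each), a 2.70-fold difference (log2 fold change 1.43 with SE 0.06, adjusted p = 4.19e-15 by edgeR). Of all tested genes, 5.23% were called with a log2 fold change of at least 1, a class that PLAU belongs to and the other 3 do not.

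PLAU overlaps C10orf55, a gene on the opposite strand that shares 916 exon bases with it, and which was looked at for that reason after the values were seen. C10orf55 had 57, 38 and 54 counts in sh-CBX7 libraries and 13, 27 and 12 counts in sh-Control libraries, 1.46 on the log2 scale (SE 0.30, adjusted p = 0.000306 by edgeR). The kit was directional per the labels' protocols, but the strand setting of the counting is not given in the sources used here. It is thus not known if reads over the shared bases were told apart by strand. The counts of C10orf55 were few beside those of PLAU.

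The urokinase receptor was also higher in sh-CBX7. PLAUR (ENSG00000011422) lies on chromosome 19, 43646095 to 43670547, on the minus strand. It had 5312, 4412 and 4844 counts in sh-CBX7 libraries, against 3074, 3090 and 2814 counts in sh-Control libraries. All 3 sh-CBX7 libraries, at 266 to 282 CPM, lay above the sh-Control libraries, at 170 to 185 CPM. The means were 274 ± 7.74 CPM and 176 ± 7.91 CPM (SD, n = 3 each), a 1.56-fold difference (log2 fold change 0.64 with SE 0.06, adjusted p = 2.21e-09 by edgeR).

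Tissue-type plasminogen activator changed least among the tested members. PLAT (ENSG00000104368) lies on chromosome 8, 42175233 to 42207724, on the minus strand. It had 1217, 1125 and 1280 counts in sh-CBX7 libraries, against 841, 814 and 756 counts in sh-Control libraries. The sh-CBX7 libraries ran from 64.6 to 72.2 CPM and the sh-Control libraries from 44.8 to 50.5 CPM, with no overlap. The means were 68.25 ± 3.84 CPM and 47.2 ± 2.99 CPM (SD, n = 3 each), a 1.45-fold difference (log2 fold change 0.53 with SE 0.07, adjusted p = 1.39e-06 by edgeR).

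Protease nexin 1, an inhibitor that also binds urokinase, was higher as well. SERPINE2 (ENSG00000135919) lies on chromosome 2, 223975112 to 224039319, on the minus strand. It had 3417, 3106 and 3331 counts in sh-CBX7 libraries, against 1992, 2337 and 2026 counts in sh-Control libraries. These were 181 to 188 CPM in sh-CBX7 and 120 to 128.5 CPM in sh-Control, again apart. The means were 186 ± 3.73 CPM and 124 ± 4.385 CPM (SD, n = 3 each), a 1.49-fold difference (log2 fold change 0.58 with SE 0.06, adjusted p = 1.37e-08 by edgeR).

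SERPINB2, the inhibitor of the intracellular serpin clade that macrophages and keratinocytes make in quantity, was near the limit of detection. SERPINB2 (ENSG00000197632) lies on chromosome 18, 63871692 to 63903890, on the plus strand. It had 10, 8 and 8 counts in sh-CBX7 libraries, against 4, 7 and 4 counts in sh-Control libraries. Summed, these were 26 and 15 counts, a ratio of 1.67 after normalisation with an exact 95% interval of 0.851 to 3.39 that covers counting error only. The interval includes 1, so a difference was not detectable at this depth. Without the low-count filter edgeR gave an adjusted p = 0.483 for it. SERPINB10, a neighbouring serpin that shares 547 exon bases on the same strand, had 0 counts in each library.

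**Figure D2:**
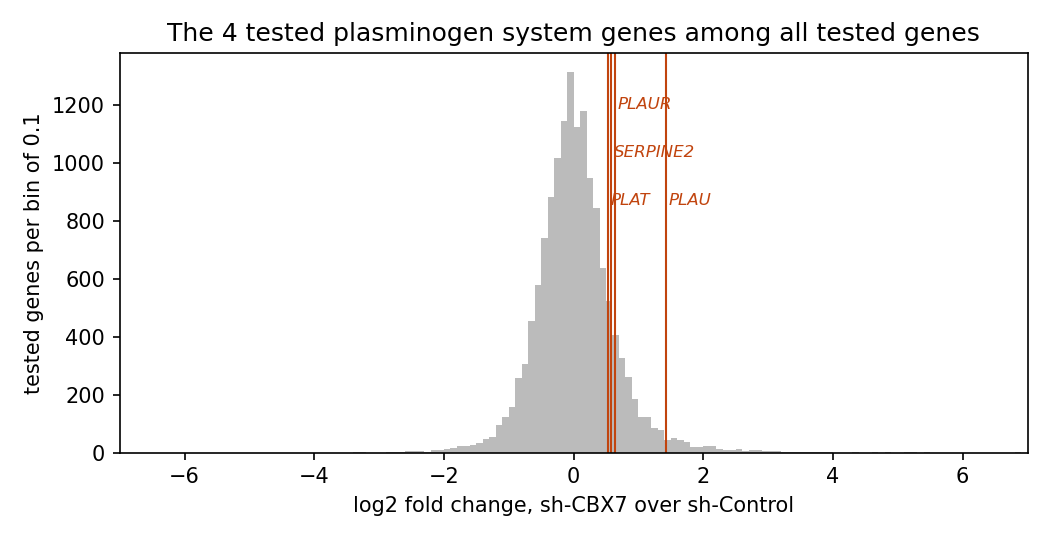
Number of tested genes (vertical axis) by log2 fold change of sh-CBX7 over sh-Control in bins of 0.1 (horizontal axis), with lines at the 4 tested plasminogen system genes. PLAT, SERPINE2 and PLAUR lie close together at 0.53, 0.58 and 0.64, and PLAU lies apart at 1.43.

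Urokinase made up a larger part of the 5 transcripts in sh-CBX7. Since levels of different genes can be compared only per length, CPM was divided by the gene length in kilobases of the deposited table. On that scale the 5 genes summed to 186, 181 and 181.5 per kilobase in sh-CBX7 libraries, against 96.3, 91.1 and 94.5 in sh-Control libraries. PLAU took 49.2% ± 0.63 of that sum in sh-CBX7 and 35.5% ± 1.05 in sh-Control (SD, n = 3 each). PLAUR took 33.6% ± 0.49 in sh-CBX7 and 42.0% ± 1.02 in sh-Control, SERPINE2 11.4% ± 0.40 and 14.9% ± 0.94, and PLAT 5.65% ± 0.38 and 7.59% ± 0.29. The groups did not overlap for these 4 shares, and the exact two-sided permutation test gave p = 0.10 for each, the smallest that 3 against 3 libraries allow (adjusted p = 0.125 over the 5 shares). Shares are parts of 1 sum, so these are not separate outcomes. The smaller shares of PLAUR, SERPINE2 and PLAT follow from the larger rise of PLAU, and the levels of these genes were themselves higher in sh-CBX7. SERPINB2 took 0.0972% ± 0.0067 in sh-CBX7 and 0.113% ± 0.035 in sh-Control, with overlapping groups (exact permutation p = 0.80). The shares themselves depend on the length used. They also depend on how reads over the 916 exon bases that PLAU shares with C10orf55 were counted, which is not known. Per kilobase of 1 coding transcript, an alternative added after seeing the data, PLAU took 28.5% ± 0.52 in sh-CBX7 and 18.4% ± 0.69 in sh-Control, and PLAUR was the largest part in both groups, at 44.1% ± 0.72 in sh-CBX7 and 49.3% ± 1.17 in sh-Control (SD, n = 3 each).

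**Figure D3:**
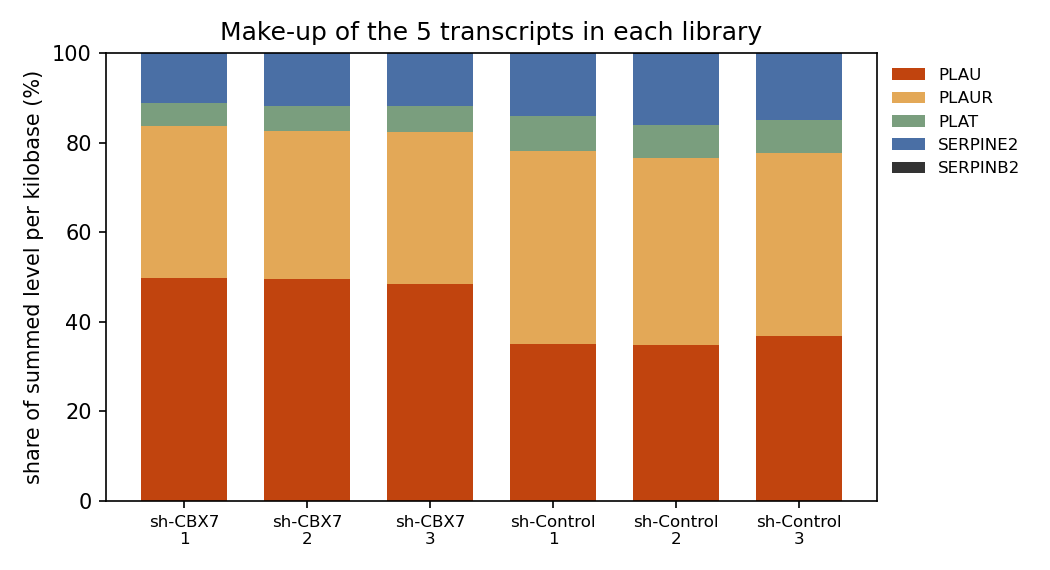
Share of each gene in the summed per-kilobase level of the 5 genes (vertical axis, percent) in each library, sh-CBX7 on the left and sh-Control on the right. The PLAU part is 48.5 to 49.6% in sh-CBX7 and 34.7 to 36.7% in sh-Control, and SERPINB2 is too small to be seen.

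The level of urokinase relative to its receptor, to SERPINE2 and to the other activator was higher in each sh-CBX7 library. The ratio of PLAU to PLAUR per kilobase was 1.46, 1.49 and 1.43 in sh-CBX7 libraries, against 0.812, 0.831 and 0.894 in sh-Control libraries. PLAU over SERPINE2 was 4.31 ± 0.19 in sh-CBX7 and 2.39 ± 0.17 in sh-Control, and PLAU over PLAT was 8.74 ± 0.70 and 4.68 ± 0.27 (SD, n = 3 each). On the log2 scale the ratios differed by 0.79 for the receptor, 0.85 for SERPINE2 and 0.90 for PLAT, differences that need no normalisation and no gene length. None of the 3 ratios overlapped between groups, and each had an exact permutation p = 0.10, the smallest possible (also 0.10 adjusted over the 3 ratios). The order of levels, in contrast, depended on the length used. How reads over the exon bases that PLAU shares with C10orf55 were counted could also affect that order. With the length of the deposited table PLAU was above PLAUR in sh-CBX7 (89.85 against 61.5 per kilobase) and below it in sh-Control (33.3 against 39.4). With the length of 1 coding transcript PLAUR was the highest of the 5 in both groups, at 177 per kilobase in sh-CBX7 and 114 in sh-Control, and PLAU was at 114 and 42.4. SERPINE2, at 84.6 and 56.6 on that scale, then lay below PLAU in sh-CBX7 and above it in sh-Control. PLAT and SERPINB2 were the lowest 2 on both scales.

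Around the 5 genes, 54 further genes were listed by role, of which 36 were tested. Of these 19 rose, 9 fell and 8 were not called, with a median log2 fold change of 0.24. The share called higher is above the 26.1% of all tested genes, and the share called lower is near their 27.2%. However, the list was compiled with earlier results of these data known and was given no test of its own.

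**Figure D4:**
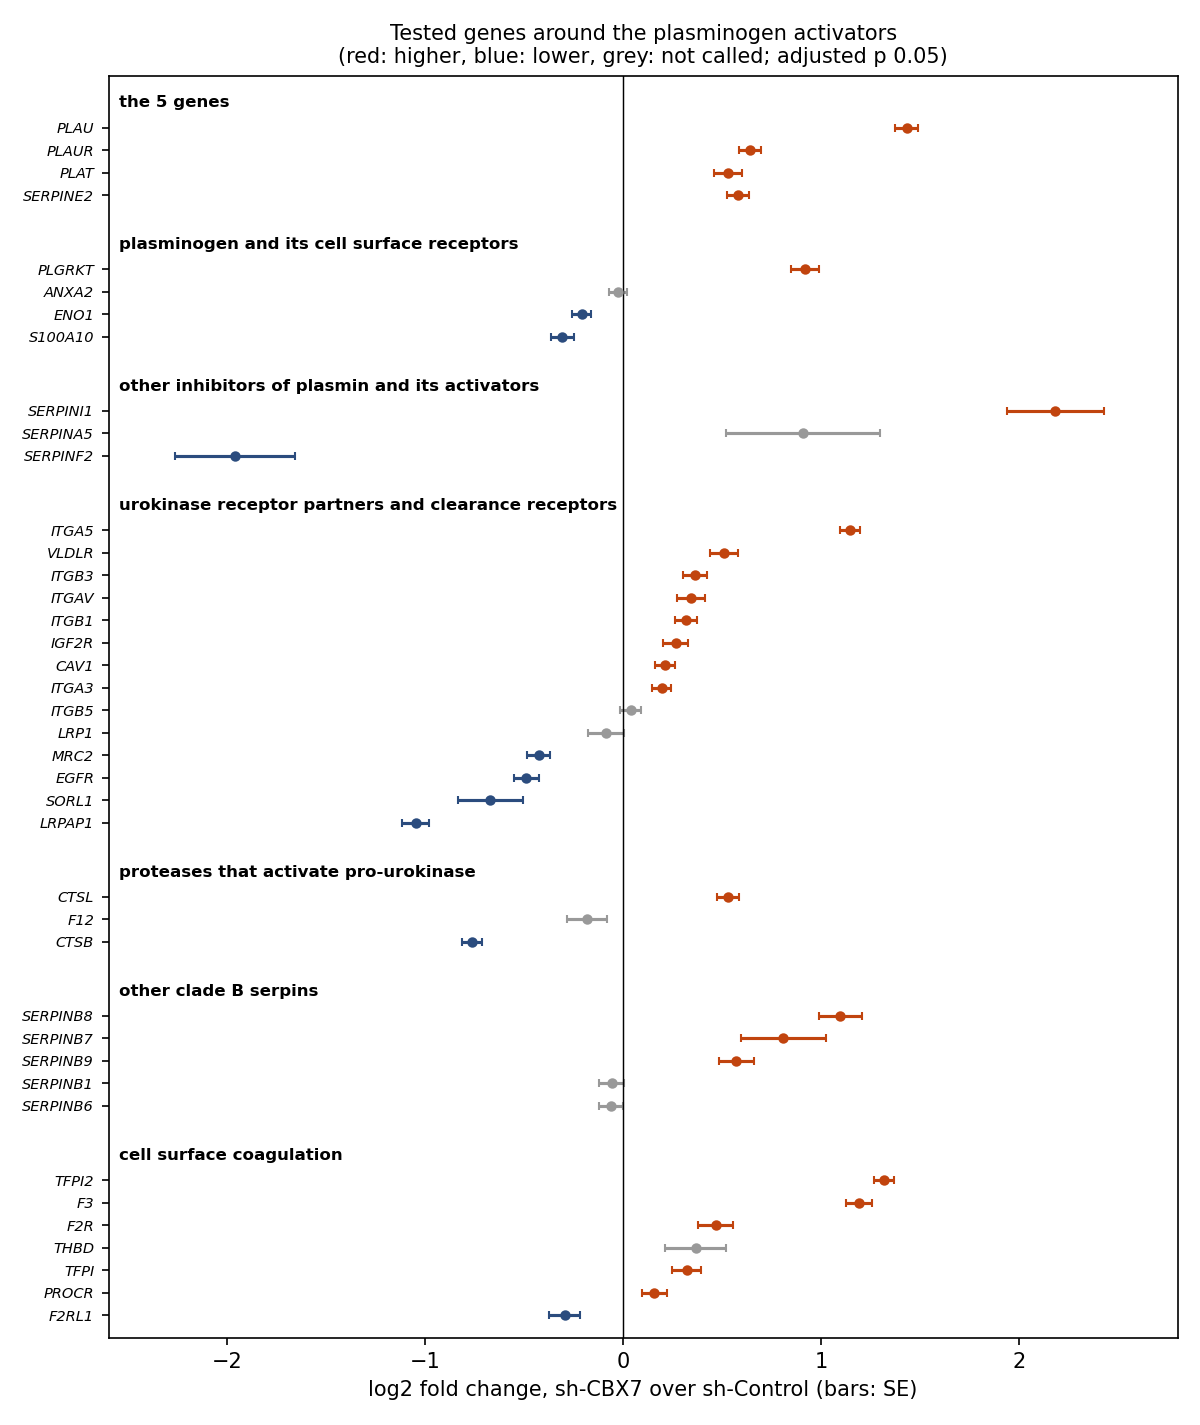
Log2 fold change of sh-CBX7 over sh-Control (horizontal axis, bars are SE from the fit to 3 libraries a group) for each tested gene, grouped by role, with red for called higher, blue for called lower and grey for not called. Coagulation genes lie mainly to the right, and the plasminogen receptors and pro-urokinase proteases lie on both sides of 0.

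Plasminogen itself, PLG, had 0 counts in each library, where a count of 0 allows up to 3 counts. Of the receptors that hold plasminogen on the cell surface, 1 of 4 tested rose and 2 fell. Among all tested genes 26.1% were called higher and 27.2% lower. PLGRKT, a transmembrane plasminogen receptor, was at 96.6 ± 7.56 CPM in sh-CBX7 and 51.05 ± 1.89 CPM in sh-Control (SD, n = 3 each; log2 fold change 0.92, edgeR adjusted p = 1.84e-10). ENO1, a glycolytic enzyme that also binds plasminogen at the surface, fell slightly (log2 fold change -0.21), as did S100A10 (-0.31), which presents plasminogen in a complex with annexin A2. ANXA2 had a log2 fold change of -0.03 (edgeR adjusted p = 0.66) at 1932 CPM in sh-CBX7 and 1968 CPM in sh-Control. The receptor genes therefore did not share 1 direction.

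Of 3 tested further inhibitors, 1 rose and 1 fell, where 26.1% of all tested genes were called higher and 27.2% lower. SERPINI1, neuroserpin, an inhibitor of tissue-type activator, was at 4.56 ± 0.52 CPM in sh-CBX7 and 1.00 ± 0.16 CPM in sh-Control (SD, n = 3 each; log2 fold change 2.18 with SE 0.25, adjusted p = 1.11e-07 by edgeR). SERPINF2, the main plasmin inhibitor of plasma, was at 0.732 ± 0.154 CPM and 2.885 ± 0.48 CPM (log2 fold change -1.96 with SE 0.30, adjusted p = 9.09e-06 by edgeR). SERPINA5, protein C inhibitor, was higher in each sh-CBX7 library but was not called (log2 fold change 0.91, edgeR adjusted p = 0.0545). All 3 lay below 5 CPM, so their folds are less precise.

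Partners of the urokinase receptor and receptors that clear urokinase complexes moved in both directions, 8 of 14 rising and 4 falling. All tested genes together had 26.1% called higher and 27.2% lower. ITGA5, an alpha chain of the fibronectin receptor, was at 848 ± 1.95 CPM in sh-CBX7 and 384 ± 7.85 CPM in sh-Control (SD, n = 3 each; log2 fold change 1.14, edgeR adjusted p = 1.57e-14). LRPAP1, the chaperone of the LDL receptor family, fell by 1.05 on the log2 scale (edgeR adjusted p = 1.36e-11). EGFR, a kinase that the urokinase receptor can signal through, fell by 0.49, and MRC2, a collagen endocytic receptor found in complex with urokinase and its receptor, fell by 0.43. LRP1, the receptor best known for removing serpin-bound urokinase, was not called (log2 fold change -0.09, edgeR adjusted p = 0.443). Among others of this list, VLDLR rose, at 92.6 CPM in sh-CBX7 and 65.1 CPM in sh-Control (log2 fold change 0.51, edgeR adjusted p = 2.84e-06). IGF2R also rose (0.26), and SORL1 fell (-0.67).

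Of the enzymes that can turn pro-urokinase into active urokinase, 1 of 3 tested was higher and 1 lower. The shares over all tested genes were 26.1% higher and 27.2% lower. The lysosomal protease CTSL had a log2 fold change of 0.53 and CTSB -0.77 (edgeR adjusted p = 4.52e-08 and 2.18e-11), while F12, the contact-phase factor XII, was not called (-0.18, edgeR adjusted p = 0.141). Without sh-Control replicate 2, F12 was called lower (-0.30, edgeR adjusted p = 0.0121). The plasma and transmembrane proteases KLKB1, ST14 and HPN did not pass the filter.

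Other serpins of the SERPINB2 clade rose in 3 of 5 tested and fell in 0, beside 26.1% higher and 27.2% lower among all tested genes. SERPINB8, a neighbour of SERPINB2 in the chromosome 18 cluster, was at 19.6 ± 0.41 CPM in sh-CBX7 and 9.16 ± 0.56 CPM in sh-Control (SD, n = 3 each; log2 fold change 1.10, edgeR adjusted p = 1.71e-08). SERPINB9, the granzyme B inhibitor, had a log2 fold change of 0.57 and SERPINB7 of 0.81, while SERPINB6 was not called at -0.06 (edgeR adjusted p = 0.412). SERPINB10, SERPINB11, SERPINB12 and SERPINB13 had 0 counts in each library.

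Cell surface coagulation genes, which act beside the plasminogen system, rose in 5 of 7 and fell in 1. Over all tested genes 26.1% were called higher and 27.2% lower. TFPI2, a matrix-bound inhibitor of plasmin, was at 948 ± 16.8 CPM in sh-CBX7 and 380.5 ± 8.16 CPM in sh-Control (SD, n = 3 each; log2 fold change 1.32 with SE 0.05, adjusted p = 1.67e-15 by edgeR). F3, tissue factor, the starter of coagulation, was at 107 ± 3.53 CPM and 46.6 ± 2.96 CPM (log2 fold change 1.19, edgeR adjusted p = 1.22e-12). The thrombin receptor F2R had a log2 fold change of 0.47, and TFPI, the inhibitor of the tissue factor pathway, of 0.32. PROCR, the endothelial protein C receptor, is among the 5 at 0.16 (edgeR adjusted p = 0.048). It was not called without sh-CBX7 replicate 1 or 2 or without sh-Control replicate 2 or 3 (edgeR adjusted p from 0.0832 to 0.233). Nor was it called without the low-count filter (edgeR adjusted p = 0.0824) or by DESeq2. THBD, thrombomodulin, was not called at 0.37 (edgeR adjusted p = 0.0519) and was called without sh-Control replicate 1 (edgeR adjusted p = 0.0248) and under 4 other settings: DESeq2's size factors, library size alone, a filter of at least 1 CPM in 3 libraries and the replicate block (edgeR adjusted p from 0.0449 to 0.0489). F2RL1, a receptor cut by trypsin-like proteases, was the 1 gene of the list that fell, at 34.2 ± 1.35 CPM in sh-CBX7 and 42.0 ± 1.85 CPM in sh-Control (SD, n = 3 each; log2 fold change -0.30, edgeR adjusted p = 0.00214).

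Profiles most like those of the 4 tested members were sought among 10266 protein-coding genes averaging 5 CPM or more, by the root mean square distance of centred log2 CPM over the 6 libraries. The nearest to PLAU were IFI35 and IFITM3, interferon-induced genes, at distances of 0.032 and 0.045. IFI35 was at 193 CPM in sh-CBX7 and 73.9 CPM in sh-Control, and IFITM3 at 943 and 372 CPM. The nearest to PLAUR were MYBL2 (0.010) and GADD45B (0.020), to PLAT MRGBP (0.013) and MAFG (0.014), and to SERPINE2 the TGF-beta receptor gene TGFBR2 (0.019) and PPFIBP1 (0.021). With 2 groups, genes that differ by a like amount between them lie near each other on this measure.

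Markers of cell types that make these proteins in tissues were low. Summed over 7 monocyte and macrophage markers, CPM ran from 17.2 to 20.15 in sh-CBX7 and from 9.08 to 9.27 in sh-Control, most of it CSF1R, the receptor of a macrophage growth factor, which rose (16.4 and 7.16 CPM, log2 fold change 1.19, edgeR adjusted p = 2.13e-08), with CD14 at 1.36 and 1.62 CPM. PTPRC and FCGR3A had 0 counts in each library. The 7 endothelial markers summed to 6.58 to 9.34 CPM in sh-CBX7 and 3.67 to 5.34 CPM in sh-Control, with ROBO4 at 2.905 and 1.31 CPM, PECAM1 at 2.38 and 1.47 CPM and CDH5 at 0 counts. The 7 fibroblast markers summed to 11.6 to 14.0 CPM and 12.15 to 13.6 CPM, with LUM at 8.35 and 5.04 CPM and COL1A1 at 1.57 and 3.24 CPM. The monocyte and endothelial sums were higher in sh-CBX7, the monocyte sum through CSF1R, while CD14 was not called (log2 fold change -0.24, edgeR adjusted p = 0.556). ROBO4 and PECAM1 were called higher (edgeR adjusted p = 0.00414 and 0.0349). ROBO4 was not called without sh-CBX7 replicate 1 (edgeR adjusted p = 0.0651), nor PECAM1 by DESeq2 (adjusted p = 0.129) or without some single libraries. KDR was not called (edgeR adjusted p = 0.0655), and CDH5, VWF, TEK and CLDN5 did not pass the filter. Every library came from a single cell line, and a part of other cell types in these results was not tested.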

How the data were processed

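Poly-A RNA of 6 libraries was sequenced, 3 sh-CBX7 and 3 sh-Control, with a directional kit per the labels' protocols. The deposited table holds whole-number read counts per gene, which the authors did not normalise, and the gene length in bases, a value of the annotation. HISAT2 2.0.5, featureCounts 1.5.0-p3, Trimmomatic and FastQC are named per the submitters' processing notes, with no strand setting given. Those notes name hg19, but start and end of 58724 of the 58735 genes (99.98%) were those of GENCODE 29 on GRCh38, so positions are on GRCh38. The table's columns say siCBX7 where the labels say sh-CBX7, and were matched by target and replicate number.

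Counts were filtered with filterByExpr (minimum count 10), normalised with TMM and fitted without pairing in edgeR 4.0.16 (R 4.3.3). The SE is the log2 fold change divided by the square root of F. On simulated data for the same 14573 genes edgeR recovered 62% of 100 genes shifted by a log2 value of 0.5, 82% of 100 shifted by 1, and called 0.0696% of 14373 without a shift. Far fewer genes were shifted there than were called in the data, so these rates do not give the power of the reported fit. Depth limits low genes most. Library size alone, DESeq2 1.42.0 and its size factors, other filters, the replicate block and leaving out each library were the alternatives.

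The named genes are the 5 members, CBX7, the tested members with the 4 smallest p of each role list, the 2 most abundant tested markers of each cell type list and the 2 nearest profiles of each tested member, and other names were chosen after seeing values. The members and lists were chosen with earlier results of these data known. 1 listed gene is not reported here and was left out of the counts over the lists.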

Additional observations from a re-analysis of the deposited data

How the results depend on the processing

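PLAU, PLAUR, PLAT and SERPINE2 were called higher under each alternative run, and CBX7 lower. Leaving out 1 library at a time, the log2 fold change ran from 1.39 to 1.46 for PLAU, 0.61 to 0.68 for PLAUR, 0.49 to 0.58 for PLAT, 0.55 to 0.60 for SERPINE2 and -0.78 to -0.65 for CBX7. The ratio for SERPINB2 ran from 0.63 to 1.01 on the log2 scale, and it had no value with a filter of at least 1 CPM in 3 libraries or with the replicate block. Of the 54 role-listed genes 18 to 20 were called higher and 9 to 10 lower, and of all genes 3398 to 3953 and 3584 to 4082. With the replicate number as a block PLAU had a log2 fold change of 1.43, and 3972 genes were higher and 4126 lower. Deviations from the group means correlated at 0.071, 0.078 and 0.037 between libraries of 1 number and at -0.074 to 0.002 between numbers. Each library was thus nearest to its own number, a hint from the data, but the values are under 0.1 and the numbers were not taken as pairs. DESeq2 called 3347 higher and 3445 lower. Calls of 42 other named genes were followed under the alternatives. Of these, 37 kept their call under each alternative that gave a value (SERPINA5 had none with at least 1 CPM in 3 libraries), 0 reversed, and 5 did not keep it (F12, ROBO4, PECAM1, PROCR and THBD).

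Shares moved with the length used. Without length the share of PLAU was 11.4 percentage points higher in sh-CBX7, and those of PLAUR (-4.9) and SERPINE2 (-4.47) were lower. Per kilobase of 1 coding transcript, a setting added after seeing the data, the differences were 10.1 for PLAU, -5.24 for PLAUR and -1.29 for PLAT. These settings differ from the reported shares in the length alone. The share of SERPINB2 changed sign without sh-Control replicate 2 (0.00455 points). Leaving out 1 library gave 13.4 to 14.3 points for PLAU, -8.79 to -7.78 for PLAUR, -2.12 to -1.74 for PLAT, -3.90 to -2.96 for SERPINE2 and -0.0269 to 0.00455 for SERPINB2.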
